A study of Drosophila melanogaster with 5 samples.

Results

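The genes described here encode proteins that build and maintain silent chromatin: the heterochromatin proteins Su(var)205 and Su(var)3-7, and the histone methyltransferases Su(var)3-9, egg, G9a and E(z). They were chosen by symbol from the 29 °C count table and followed by gene identifier into the 25 °C count table. All 6 genes were found in both tables, out of 24034 features at 29 °C and 23882 at 25 °C, and all 6 were measured in every comparison.

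Heterochromatin is the compact chromatin around centromeres and telomeres and on the smallest fly chromosome, and it keeps transposons and repeats silent. Its core is a cycle in which methyltransferases add methyl groups to lysine K9 of histone H3, HP1 proteins bind that mark, and further proteins join. Polycomb silencing is a separate system that marks lysine K27 of histone H3 and holds developmental genes off. In flies the linker histone H1 is known to help tether Su(var)3-9 to heterochromatin, which gives these genes a place in a study of H1.

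RNA with poly(A) tails was sequenced from Drosophila melanogaster, and the labels name the tissue both as heads and as brain. Photoreceptor transcripts were abundant, with eye markers summing to 48173 to 63668 CPM (counts scaled to a common library size) in each library, and all 6 neuron markers were detected in every library. The design text asks whether histone H1 takes part in a depression-like state brought on by Levodopa, the precursor of dopamine. Each of the 5 samples formed a group of its own. At 25 °C, wild-type flies fed Levodopa were set against untreated wild-type flies. At 29 °C, H1 overexpression flies (H1OE) and wild-type flies fed Levodopa were each set against wild-type flies. Levodopa was given at 4 g/L in the food for 7 days. H1OE flies were offspring of an H1 overexpression strain and a strain with an elav driver, active in neurons and switched by temperature. They were crossed at 18 °C and kept at 29 °C for 7 days. The control at 29 °C is labelled only as wild type and 29 °C, so the driver, the transgene, the cross temperature and the time at 29 °C are not matched to H1OE by label.

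The 25 °C table gave 2 count columns per sample, which summed to 30074894 and 30334054 reads in Levodopa and to 25947583 and 28856401 in control. The 29 °C table gave 1 column per sample, of 26832877 reads in H1OE, 25975838 in Levodopa and 24770629 in control. Nothing in the labels ties the 25 °C columns to separate flies, so their p-values cover the spread between columns alone, and that spread may be technical. The 29 °C groups had no replicate, so no test was made there and no p is given. The 23 annotated His1 genes had 0 counts in H1OE and in every other library except for 1 count in a Levodopa column at 25 °C, so the overexpression could not be checked from these counts. In whole heads, fewer cells of a type and less RNA per cell cannot be told apart.

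Su(var)205, which encodes HP1a, the founding reader of the K9 mark, was by far the most abundant transcript among the genes. Levels between genes are given in the authors' FPKM, which divide a count by gene length and library size. Su(var)205 stood at 58.7 and 56.3 FPKM in the Levodopa columns at 25 °C, against 59.7 and 58.2 FPKM in the control columns. At 29 °C it stood at 47.8 FPKM in H1OE and 49.1 FPKM in Levodopa, against 58.4 FPKM in control. The 25 °C columns overlapped on this scale, and at 29 °C the control library was the highest. The tables of the 2 temperatures were scaled apart, so levels across them stand side by side without a test. In each library Su(var)205 lay above 88.6 to 91.1% of the measured genes.

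Su(var)3-9, the K9 methyltransferase of pericentric heterochromatin, was the least abundant transcript of the genes in every library. It stood at 1.94 and 1.81 FPKM in Levodopa at 25 °C, against 1.32 and 1.18 FPKM in control. At 29 °C it stood at 1.28 FPKM in H1OE and 1.71 FPKM in Levodopa, against 0.824 FPKM in control. Both Levodopa samples lay above their control, and the 29 °C control was the lowest of the 7 libraries. Su(var)3-9 lay above only 16.3 to 24.7% of measured genes, and rested on 47 to 139 counts a library.

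The remaining genes lay close together in the middle of the range. E(z), the catalytic subunit of Polycomb repressive complex 2 and the methyltransferase of the K27 mark, ranged from 8.59 to 10.4 FPKM. Su(var)3-7, a zinc-finger protein that binds HP1a, ranged from 4.48 to 8.21 FPKM and had rank 4 in every library. Egg, the fly SETDB1 and a K9 methyltransferase with a known role in the ovary and on the smallest chromosome, ranged from 5.93 to 8.73 FPKM. G9a, a K9 methyltransferase that flies can live without and that is known for a role in learning and memory, ranged from 3.79 to 9.20 FPKM.

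The order of these middle genes differed between groups. In the Levodopa columns at 25 °C the order was E(z), G9a, Su(var)3-7 and egg, and the columns of Su(var)3-7 and egg overlapped. In the control columns at 25 °C it was E(z), egg, Su(var)3-7 and G9a, with no overlap between neighbours. In H1OE at 29 °C G9a came before E(z), at 9.20 and 8.97 FPKM, followed by Su(var)3-7 and egg. In Levodopa at 29 °C the order was egg, E(z), Su(var)3-7 and G9a, and in the 29 °C control it was E(z), egg, Su(var)3-7 and G9a. With 1 library per group at 29 °C, the spread of these orders is unknown.

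**Figure D1:**
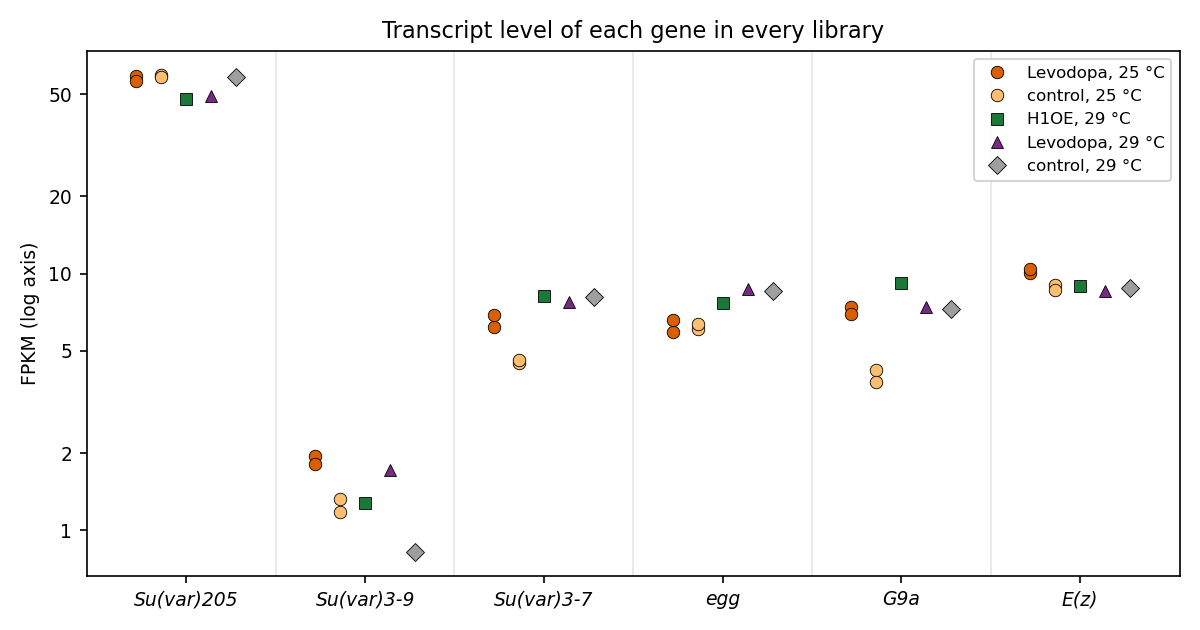
Deposited FPKM (log axis) of each gene in all 7 libraries, 1 point per library, coloured by group. Su(var)205 lies between 47.8 and 59.7 FPKM and Su(var)3-9 between 0.824 and 1.94 FPKM, while at 25 °C G9a shows the widest gap on this axis between Levodopa (7.39 and 6.98) and control (4.23 and 3.79) and at 29 °C Su(var)3-9 does (1.71 against 0.824).

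The genes differ in length and in what lies beside them, which bears on how their reads can be counted. In build dm6, Su(var)205 lies on arm 2L from 8209626 to 8211122 with 1109 exonic bases, the shortest of the genes. G9a lies on chromosome X from 245978 to 254650 with 7235 exonic bases, the longest, and shares no exonic base with another gene. E(z) lies on 3L from 10634575 to 10638130 with 2665 exonic bases, 38 of them opposite to CG34001. Su(var)3-7 lies on 3R from 13264364 to 13270038 with 5051 exonic bases, of which 693 (13.7%) overlap TBC1D5 on the opposite strand. Egg lies on 2R with 3937 exonic bases, of which 629 overlap an antisense RNA that had at most 3 counts in any library. The strand setting of the counting is not given in the sources used here, so reads in such stretches cannot be assigned with certainty.

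Su(var)3-9 lies inside another gene. It runs from 15259864 to 15263458 on 3R, and its annotated exons share 352 bases, 14.8% of their length, with eIF2gamma on the same strand, a subunit gene of a translation initiation factor. The remaining 2034 exonic bases belong to Su(var)3-9 alone. How reads on the shared bases were assigned is not given in the sources used here, and eIF2gamma had 2001 to 2708 counts a library beside the 47 to 139 of Su(var)3-9, so that assignment could change the level of Su(var)3-9 by far more than the shared part of its length.

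At 25 °C, Levodopa was accompanied by higher G9a, Su(var)3-7 and Su(var)3-9 and by slightly lower Su(var)205, while egg and E(z) did not pass the test. CPM below are scaled by TMM, and the test was edgeR's quasi-likelihood F test with Benjamini-Hochberg adjustment over 11799 genes. At adjusted p under 0.05, 3 of the 6 genes were higher, where 26.5% of all genes were, and 1 was lower, where 32.0% of all genes were. With total-count scaling 34.2% of all genes were higher and 25.0% lower. Of the 6 genes 0 passed a 2-fold change as well, against 5.16% of all genes, and G9a alone passed a 1.5-fold rise, against 7.29%. The median log2 fold change of the 6 genes was 0.23, against -0.00 over all genes tested, whose middle range ran from -0.42 to 0.38. A call at this threshold was common, made for 58.5% of all genes, so the count for the 6 genes lies near that of any genes.

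G9a had the largest difference at 25 °C. It stood at 50.7 and 48.4 CPM in the Levodopa columns, against 32.1 and 28.9 CPM in the control columns. The columns of the groups did not overlap. The fold was 1.63 (log2 fold change 0.70, SE 0.07, edgeR adjusted p = 5.37e-26), larger than the log2 fold change of 90.8% of genes tested. The rise passed the test with each column left out in turn, at log2 fold changes of 0.63 to 0.78.

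Su(var)3-7 rose as well. It stood at 29.7 and 33.4 CPM in the Levodopa columns, against 23.7 and 24.4 CPM in the control columns, without overlap. Its log2 fold change was 0.39 (SE 0.08, edgeR adjusted p = 1.44e-06). Without control column 1 the log2 fold change was 0.37 and the call was lost (edgeR adjusted p = 0.0507).

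Su(var)3-9 was just inside the threshold. It had 139 and 131 counts in the Levodopa columns, or 4.39 and 4.14 CPM, against 82 and 81 counts, or 3.31 and 2.95 CPM, in the control columns. The Levodopa columns were both higher. The log2 fold change was 0.45 (SE 0.20, edgeR adjusted p = 0.0494). The call did not hold with any of the 4 columns left out (edgeR adjusted p 0.0655 to 0.215) or with DESeq2 (adjusted p = 0.164), whereas the log2 fold change stayed between 0.37 and 0.53.

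Su(var)205 moved the other way. It stood at 61.8 and 59.8 CPM in the Levodopa columns, against 69.3 and 67.9 CPM in the control columns, without overlap. The log2 fold change was -0.17 (SE 0.05, edgeR adjusted p = 0.00173). This fall depended on the scaling: with total counts it was -0.04 (edgeR adjusted p = 0.588), a setting that raised the median of all genes by 0.14 on the log2 scale. The call was also lost without Levodopa column 2 (-0.15, edgeR adjusted p = 0.0529) and without control column 1 (-0.16, adjusted p = 0.0567).

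Egg and E(z) did not pass at 25 °C. Egg stood at 22.2 and 25.0 CPM in the Levodopa columns, against 25.1 and 26.3 CPM in the control columns (log2 fold change -0.13, SE 0.08, edgeR adjusted p = 0.181). E(z) stood at 25.5 and 26.6 CPM, against 25.3 and 24.3 CPM in control (0.07, SE 0.08, edgeR adjusted p = 0.463). The columns of the groups did not overlap in either gene, but the nearest lay close together. For all 6 genes the columns did not overlap, and neither did they for 76.8% of all genes tested. With total-count scaling E(z) passed as higher (0.21, edgeR adjusted p = 0.0178).

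The differences at 25 °C followed gene length across the transcriptome, and the heterochromatin genes span that range. Over 11799 genes, which are not independent replicates, Spearman's rho between length and log2 fold change was 0.35. The median log2 fold change was -0.30 among the shortest 25% of genes (median length 735 bases) and 0.36 among the longest 25% (5212 bases). The trend fitted at the length of G9a was 0.40, at that of Su(var)3-7 0.30, at that of egg 0.20 and at that of Su(var)205 -0.26. Near the lengths of E(z) and Su(var)3-9 it was 0.01 and -0.05.

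With that trend removed, the picture among the genes was different. G9a remained higher, at a log2 fold change of 0.30 (edgeR adjusted p = 1.72e-05), and Su(var)3-9 was at 0.49 (adjusted p = 0.0338). Egg then passed as lower, at -0.33 (edgeR adjusted p = 0.000212). Su(var)3-7 at 0.09 (adjusted p = 0.334), Su(var)205 at 0.08 (adjusted p = 0.173) and E(z) at 0.06 (adjusted p = 0.55) did not pass in edgeR, and Su(var)205 changed sign. In this fit 48.7% of all genes passed, 19.0% as higher and 29.6% as lower, and the median of the 6 genes was 0.09, against -0.03 over all genes.

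**Figure D2:**
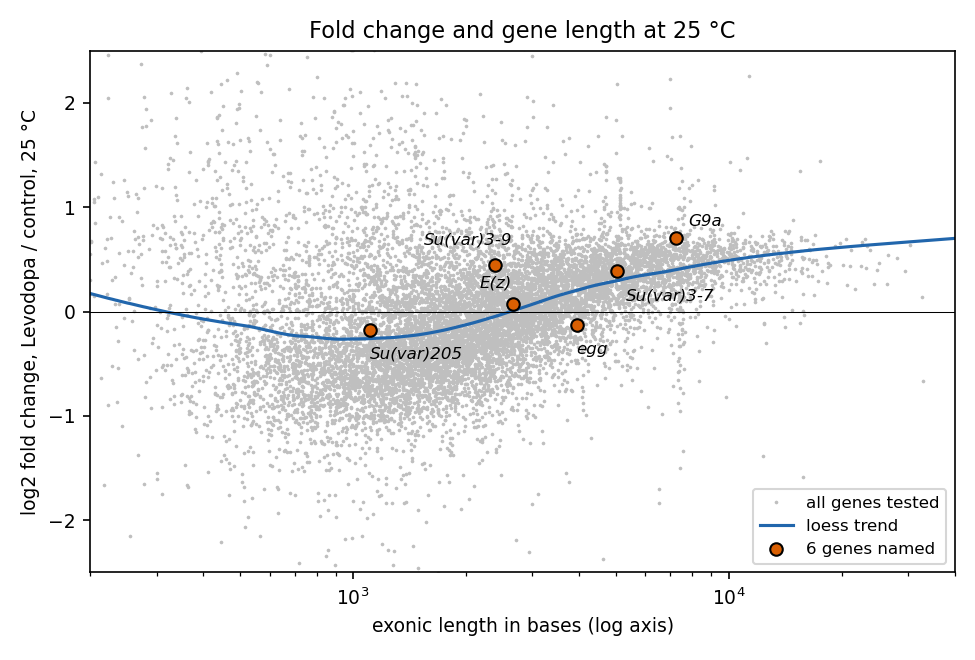
Log2 fold change of Levodopa against control at 25 °C for each gene tested (grey, values beyond 2.5 in either direction outside the frame), against exonic length in bases on a log axis, with the loess trend in blue and the 6 genes in orange. G9a, Su(var)3-9 and egg lie farthest from the trend at their length, by 0.30, 0.49 and -0.33, and Su(var)205 and Su(var)3-7 lie close to it.

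Neuron markers moved in the same direction as G9a at 25 °C. All 6 markers (elav, nSyb, Syt1, brp, Syx1A and fne) had a log2 fold change above 0, with a median of 0.50, and of 0.14 with the length trend removed. Their summed level was 2075 and 2049 CPM in the Levodopa columns, against 1432 and 1417 CPM in the control columns. Eye markers summed to 48320 and 48173 CPM in Levodopa, against 62753 and 62508 CPM in control. Most of that difference lay in ninaE (27589 and 27465 CPM, against 33167 and 32818 CPM in control) and Arr2 (12696 and 12747 CPM, against 21497 and 21662 CPM in control), and the median log2 fold change of the 5 measured eye markers was -0.02, with ninaA listed at 0 counts in all 7 libraries. Haemocyte markers summed to 471 CPM in both Levodopa columns, against 614 and 612 CPM in control. Most of that difference lay in PPO1 (73.4 and 74.1 CPM, against 164 and 169 CPM in control) and PPO2. PPO2 stood at 53.2 and 52.0 CPM, against 92.1 and 96.7 CPM in control. Of the 6 haemocyte markers 1, Hml, was above 0, and the median was -0.25. Glia markers summed to 1962 and 1947 CPM in Levodopa, against 2079 and 2057 CPM in control. Of the 6 glia markers 3 were above 0, and the median was -0.04. Fat body markers summed to 2856 and 2853 CPM in Levodopa, against 2669 and 2684 CPM in control, nearly all of it apolpp. Lsp2 had 158 and 166 counts in Levodopa, against 11 and 20 in control. The 4 measured fat body markers ranged from -0.84 to 3.10, with 3 above 0. Muscle markers summed to 1537 and 1529 CPM in Levodopa, against 1247 and 1271 CPM in control, with 5 of 6 above 0. The part of these cell types in the differences of the heterochromatin genes was not tested.

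At 29 °C, Levodopa was accompanied by higher Su(var)3-9 and lower Su(var)205, and the other genes lay within counting error of control. Folds at 29 °C are ratios of scaled counts with a 95% exact interval that covers counting error only, and log2 fold changes have 10 counts added to both libraries. Of the 6 genes, 2 had an interval that excluded 1, which was so for 41.2% of the 11145 genes compared. With 10 counts added, Su(var)3-9 alone passed a 1.5-fold rise, which 4.31% of all genes did (9.98% passed in either direction). On that scale 0 passed 2-fold, which 2.69% did. With 1 count added Su(var)3-9 was at 1.03, past 2-fold. The median log2 fold change of the genes was -0.02, against -0.01 over all genes.

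Su(var)3-9 had 105 counts in Levodopa at 29 °C, against 47 in control, or 4.02 and 1.95 CPM. The fold was 2.06 (interval 1.45 to 2.97), at a log2 fold change of 0.91, above that of 98.4% of genes. Su(var)205 had 1400 counts in Levodopa, against 1550 in control, or 53.5 and 64.3 CPM. It was 1.20-fold lower (interval 1.12 to 1.29, log2 fold change -0.26). Su(var)3-9 was therefore higher in Levodopa than in the control of its own table at both temperatures. Su(var)205 was lower at both in TMM-scaled counts, but at 25 °C it stood at -0.04 with total counts (edgeR adjusted p = 0.588) and at 0.08 with the length trend removed (adjusted p = 0.173). Between the temperatures the size of these effects was not tested.

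G9a, the gene with the largest difference at 25 °C, showed none of that size at 29 °C. It had 52.6 CPM in Levodopa, against 52.4 CPM in control, a fold of 1.00 with an interval of 0.930 to 1.09. Su(var)3-7 had 38.5 CPM in Levodopa, against 40.7 CPM in control (0.946-fold, interval 0.866 to 1.03). Egg had 33.8 CPM in Levodopa, against 33.5 CPM in control (1.01-fold, 0.917 to 1.11). E(z) had 22.5 CPM in Levodopa, against 23.4 CPM in control (0.964-fold, 0.858 to 1.08). For these genes no difference beyond counting error was seen. The upper counting bound for G9a lay below the fold of 1.63 seen at 25 °C, where its log2 fold change was 0.30 with the length trend removed. With 1 library per group the spread is unknown, so these intervals do not bound the effect of Levodopa. The difference between temperatures was not tested. The length trend was weaker at 29 °C (rho 0.22 across genes), and the median of the neuron markers was 0.02.

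H1OE was accompanied by lower Su(var)205 and egg and by higher G9a and Su(var)3-9 than the 29 °C control, each by less than 2-fold. These 4 genes had an interval that excluded 1, which was so for 55.0% of the 11340 genes compared. With 10 counts added, 0 of the 6 genes passed 1.5-fold, which 18.3% of all genes did, and 0 passed 2-fold, which 7.13% did. Their median log2 fold change was -0.00, equal to that of all genes. The comparison shares its control library with that of Levodopa at 29 °C, so their values are not independent.

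Su(var)205 had 1419 counts in H1OE, against 1550 in control, or 51.9 and 64.3 CPM. It was 1.24-fold lower (interval 1.15 to 1.33, log2 fold change -0.31). G9a had 1783 counts in H1OE, against 1262 in control, or 65.2 and 52.4 CPM, a fold of 1.24 (1.16 to 1.34). Its log2 fold change of 0.31 was 0.21 with the length trend removed. H1OE held the highest level of G9a of all 7 libraries.

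Su(var)3-9 had 82 counts in H1OE, against 47 in control, or 3.0 and 1.95 CPM, a fold of 1.54 (interval 1.06 to 2.25, log2 fold change 0.53). Egg had 809 counts in H1OE, against 807 in control, which after scaling were 29.6 and 33.5 CPM. It was 1.13-fold lower (1.03 to 1.25, log2 fold change -0.18). This value depended on the scaling: with total counts the log2 fold change of egg was -0.11. That setting raised the median of all genes by 0.07, and no interval was computed for it. Su(var)3-7 had 40.6 CPM in H1OE, against 40.7 CPM in control (0.998-fold, 0.915 to 1.09). E(z) had 23.4 CPM in both libraries (1.00-fold, 0.893 to 1.12). The K27 methyltransferase and the HP1a partner were thus within counting error of the control.

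Set against Levodopa at the same temperature, H1OE differed in G9a and egg. G9a had 65.2 CPM in H1OE, against 52.6 CPM in Levodopa, a fold of 1.24 (interval 1.15 to 1.33, log2 fold change 0.31). Egg had 29.6 CPM in H1OE, against 33.8 CPM in Levodopa (0.875-fold, 0.794 to 0.963, log2 fold change -0.19). Su(var)3-9 had 3.0 CPM in H1OE, against 4.02 CPM in Levodopa, and the interval included 1 (0.746-fold, 0.552 to 1.01). Su(var)205 (0.969-fold), Su(var)3-7 (1.05-fold) and E(z) (1.04-fold) had intervals that included 1. Of the 6 genes 2 thus had an interval that excluded 1, against 52.8% of 11364 genes, and 0 passed 1.5-fold or 2-fold, against 17.3 and 6.16%.

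**Figure D3:**
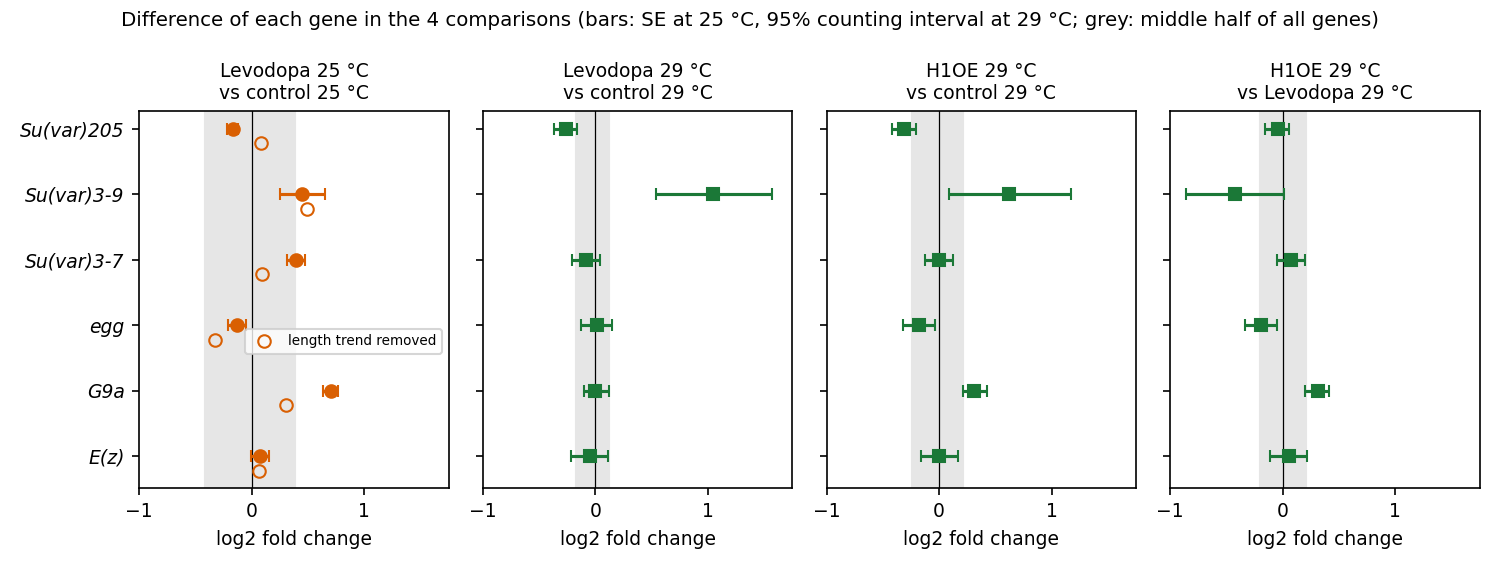
Log2 fold change of each gene in the 4 comparisons, with the group named first in each panel title over the second. At 25 °C filled circles are the edgeR estimates with their SE and open circles those with the length trend removed; at 29 °C squares are log2 ratios of scaled counts with the 95% counting interval and nothing added; grey spans the middle range of all genes. Su(var)205 lies below 0 in each comparison with a control, apart from 0.08 with the length trend removed, Su(var)3-9 lies above 0, and G9a stands at 0.70 for Levodopa at 25 °C and near 0 for Levodopa at 29 °C.

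Other markers moved with H1OE at 29 °C. Neuron markers, where the elav driver is active, summed to 2700 CPM in H1OE and 2606 CPM in Levodopa, against 2480 CPM in control. Glia markers summed to 2106 CPM in H1OE and 2758 CPM in Levodopa, against 2648 CPM in control, and 0 of the 6 were above 0 in H1OE against control (median log2 fold change -0.32). Fat body markers summed to 3396 CPM in H1OE and 6358 CPM in Levodopa, against 7215 CPM in control, with medians of -2.27 and -1.79 against control. Haemocyte markers summed to 728 CPM in H1OE and 1124 CPM in Levodopa, against 1126 CPM in control. Eye markers summed to 62149 CPM in H1OE and 63668 CPM in Levodopa, against 61617 CPM in control. Muscle markers summed to 2461 CPM in H1OE and 2835 CPM in Levodopa, against 2583 CPM in control. Of the 6 muscle markers 4 were above 0 in H1OE against control, with a median of 0.01. The part of these cell types in the values of the heterochromatin genes was not tested.

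Ratios between the genes within a library do not depend on how libraries are scaled. G9a amounted to 12.6 and 12.4% of the FPKM of Su(var)205 in Levodopa at 25 °C, against 7.09 and 6.51% in control. At 29 °C G9a amounted to 19.3% in H1OE and 15.1% in Levodopa, against 12.5% in control. The methyltransferase was thus higher relative to HP1a in every library of a treated or overexpressing group than in the control of its table. Su(var)3-9 showed the same order, with 3.30 and 3.21% in Levodopa at 25 °C against 2.21 and 2.03% in control. At 29 °C it was 2.69% in H1OE and 3.49% in Levodopa, against 1.41% in control.

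The other genes also lay higher relative to Su(var)205 in most treated libraries. Su(var)3-7 was at 10.5 and 12.3% in Levodopa at 25 °C, against 7.50 and 7.89% in control, and at 17.2% in H1OE and 15.8% in Levodopa at 29 °C, against 13.9% in control. E(z) was at 17.2 and 18.5% in Levodopa at 25 °C, against 15.2 and 14.9% in control, and at 18.8% in H1OE and 17.5% in Levodopa at 29 °C, against 15.1% in control. Egg overlapped at 25 °C, with 10.1 and 11.8% in Levodopa and 10.2 and 10.9% in control. At 29 °C egg was at 16.1% in H1OE and 17.8% in Levodopa, against 14.7% in control. All these ratios share Su(var)205 as their base, the shortest of the genes, so they carry its lower level and the length trend as well.

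For Su(var)3-9 the counts of its host locus give a second ratio free of scaling. Its counts made up 5.72% (95% exact interval 4.83 to 6.72) and 5.73% (4.82 to 6.77) of those of Su(var)3-9 and eIF2gamma together in Levodopa at 25 °C. In control at 25 °C they made up 3.76% (3.0 to 4.64) and 3.23% (2.58 to 4.00). At 25 °C the intervals of the groups did not overlap. At 29 °C the share was 4.37% (3.59 to 5.27) in Levodopa, against 2.29% (1.69 to 3.04) in control, again without overlap. In H1OE it was 2.94% (2.34 to 3.64), and this interval overlapped those of both other libraries.

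The partner transcript also differed between groups. The log2 fold change of eIF2gamma was -0.30 in Levodopa at 25 °C (SE 0.05, edgeR adjusted p = 8.32e-10), 0.08 in Levodopa at 29 °C and 0.25 in H1OE against control. In H1OE both genes of the locus were higher than in control, and in Levodopa at 29 °C Su(var)3-9 stood out from its host. Of the other genes with exons opposite to these, TBC1D5, opposite to Su(var)3-7, had a log2 fold change of -0.35 (SE 0.07, edgeR adjusted p = 7.94e-06) at 25 °C. CG34001, opposite to the end of E(z), had 31 counts in H1OE and 18 in Levodopa at 29 °C, against 6 in control. CG8419, opposite to the end of Su(var)205, had a log2 fold change of -0.20 (SE 0.11, edgeR adjusted p = 0.116) at 25 °C.

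**Figure D4:**
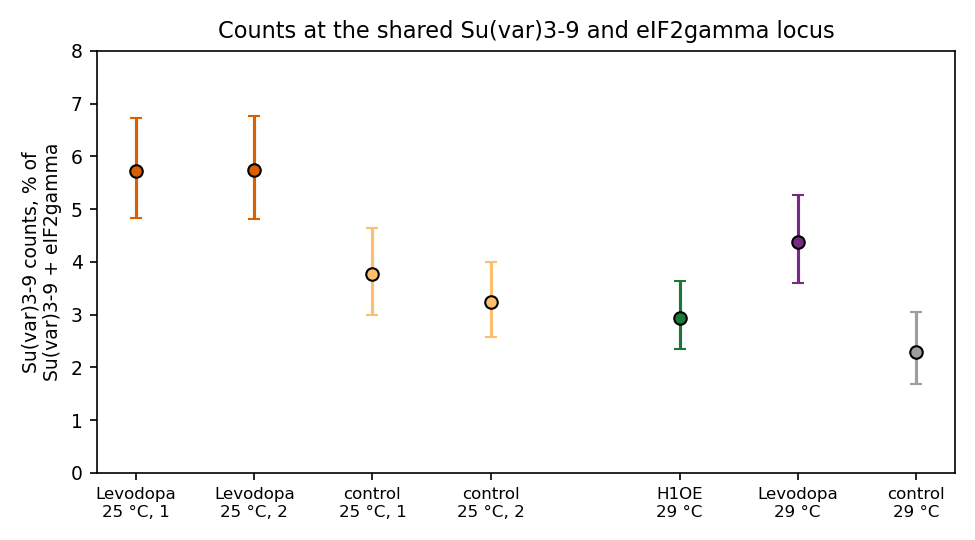
Counts of Su(var)3-9 as a percent of the counts of Su(var)3-9 and eIF2gamma together in each of the 7 libraries, with 95% exact binomial intervals that cover counting error only. Levodopa lies above control at 25 °C (5.72 and 5.73 against 3.76 and 3.23%) and at 29 °C (4.37 against 2.29%), and H1OE, at 2.94%, lies between.

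The rest of the HP1 family did not rise at 25 °C. Of 6 measured family members 0 rose and 2 fell in edgeR, Su(var)205 and HP1c, where 26.5% of all genes were higher and 32.0% lower. The list median was -0.26, against -0.00 over all genes. HP1c, an HP1 protein of euchromatin, stood at 16.7 and 16.6 CPM in the Levodopa columns, against 27.4 and 27.3 CPM in the control columns. Its log2 fold change was -0.72 (SE 0.09, edgeR adjusted p = 2.44e-15), and -0.45 with the length trend removed, when it was the only member that fell. HP1b had a log2 fold change of -0.01 (edgeR adjusted p = 0.908). HP1D3csd, on 29 counts in Levodopa and 36 in control, did not pass (-0.58, edgeR adjusted p = 0.431). Rhi, on 32 counts in Levodopa and 28 in control, and HP6, on 14 and 15, rested on few counts as well.

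Other genes of the K9 methyltransferase and HP1 partner lists rose at 25 °C. Windei (wde), the partner of egg, stood at 49.5 and 51.4 CPM in Levodopa, against 34.5 and 35.1 CPM in control (log2 fold change 0.54, SE 0.06, edgeR adjusted p = 1.1e-16). With G9a and Su(var)3-9 it made 3 of the 4 genes of the K9 methyltransferase list higher, and all 3 passed with the length trend removed as well. In that fit egg, the other gene of the list, passed as lower (-0.33, edgeR adjusted p = 0.000212). Of 16 HP1 partners and heterochromatin binding proteins 10 rose and 1 fell, where 26.5% of all genes were higher and 32.0% lower, with a median of 0.31, and of 0.11 with the length trend removed. The largest were Su(var)3-3, the demethylase Lsd1 (0.62, SE 0.12, edgeR adjusted p = 1.55e-06), and Su(var)2-HP2, a protein that binds HP1a (0.61, SE 0.06, adjusted p = 1.34e-20). With the length trend removed 5 of the 16 were higher and 3 lower, where 19.0 and 29.6% of all genes were, Su(var)3-3 at 0.45 still among the higher and Su(var)2-HP2 at 0.12 (edgeR adjusted p = 0.127) not.

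Among Polycomb genes more were higher than lower at 25 °C, although E(z) itself did not pass, and with the length trend removed this was no longer so. Of 9 genes of Polycomb repressive complex 2, 5 rose and 1 fell (median 0.30), led by the accessory subunits jing (0.53) and Jarid2 (0.51), which stood at 0.06 and 0.07 with the length trend removed. In that fit 1 of the 9 was higher and 2 were lower, beside 19.0% of all genes higher and 29.6% lower. The list median was then 0.06. Of 10 genes of Polycomb repressive complex 1 and its recruiters 7 rose and 1 fell (median 0.38, and 0.06 with the length trend removed), beside 26.5% of all genes higher and 32.0% lower. The DNA-binding protein pho stood at 73.6 and 77.9 CPM in Levodopa, against 45.1 and 46.5 CPM in control (0.72, SE 0.05, edgeR adjusted p = 6.31e-40). Pc, whose chromodomain binds the K27 mark, stood at 34.6 and 35.8 CPM, against 21.5 and 23.3 CPM in control (0.65, SE 0.08, edgeR adjusted p = 1.18e-16). These 2 genes kept their size with the length trend removed, at 0.77 and 0.68, when 3 of the 10 were higher and 3 lower.

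Among methyltransferases of other lysines and demethylases more genes were higher than lower, and fewer were higher with the length trend removed. Of all genes 26.5% were higher and 32.0% lower, and with the length trend removed 19.0% were higher and 29.6% lower. Of 10 other histone lysine methyltransferases 8 rose and 0 fell (median 0.58, and 0.11 with the length trend removed, when 5 were higher and 0 lower). PR-Set7, which adds the first methyl group to lysine K20 of histone H4, had a log2 fold change of 0.71 (SE 0.11, edgeR adjusted p = 5.79e-11), and the Trithorax methyltransferase gene trx had 0.67 (SE 0.04, adjusted p = 3.35e-54), which was 0.11 with the length trend removed (edgeR adjusted p = 0.0239). Of 9 genes listed as demethylases 6 rose and 2 fell (median 0.31). Those that fell were JMJD7 at -0.71 (SE 0.13, edgeR adjusted p = 4.65e-08) and JMJD5 at -0.40 (SE 0.10, edgeR adjusted p = 0.000117). Whether these 2 genes encode histone demethylases was not tested. The list shares genes with that of the HP1 partners, among them Su(var)3-3 and Kdm4A. With the length trend removed 3 of the 9 were higher and 1 lower (median 0.14). Of 9 genes of piRNA-guided silencing, which acts mainly in the gonads, 1 rose, spn-E (0.58, SE 0.26, edgeR adjusted p = 0.0413), and 0 fell. With the length trend removed spn-E was at 0.31 and did not pass (edgeR adjusted p = 0.333). In that list mael at 0.55 did not pass (edgeR adjusted p = 0.14), and the median was 0.04. In no list did a gene pass 2-fold at 25 °C, where 5.16% of all genes passed both 2-fold and the test.

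For Levodopa at 29 °C the same lists had medians between -0.12 and 0.13. The median over all genes was -0.01, and their middle range was narrower than at 25 °C, from -0.17 to 0.12. The median of Polycomb repressive complex 1, at 0.13, lay just above that range, and that of the K9 methyltransferase list was 0.11. With 10 counts added, 0 of their genes passed 2-fold, which 2.69% of all genes did. Over all genes 9.98% passed 1.5-fold in either direction. Past 1.5-fold on that scale were Su(var)3-9 and 2 genes with few counts: rhi, the germline HP1, with 10 counts in Levodopa and 1 in control (9.22-fold, interval 1.31 to 400), and piwi with 11 counts in Levodopa and 29 in control. Around the 6 genes, HP1c was at -0.28, wde at 0.20, the HP1a-binding protein Lhr at -0.45 and CoRest, the partner of Su(var)3-3, at 0.28. Among Polycomb genes esc, a core subunit of complex 2, was at -0.45 with 235 counts in Levodopa and 299 in control, Pcl was at 0.38, Psc at -0.41 and Sfmbt at 0.29. PR-Set7 (-0.24), ash1 (0.18), JMJD5 (0.24), Su(var)3-3 (-0.15) and spn-E (-0.33) were the other named genes.

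In H1OE, some Polycomb and Trithorax genes were higher than in control. Su(z)2, a RING-finger protein related to Psc, had 1448 counts in H1OE, against 817 in control (1.56-fold, interval 1.43 to 1.70, log2 fold change 0.64). The complex 2 subunit esc had 493 counts in H1OE, against 299 in control (1.45-fold, 1.26 to 1.68). Trx had 5653 counts, against 3518 in control (1.42-fold, 1.36 to 1.48), and ash1, a methyltransferase of the Trithorax group, 2432 counts, against 1586 in control (1.35-fold, 1.27 to 1.44). E(z), the enzyme that esc assists, was at 1.00-fold beside them. All 9 complex 2 genes had a log2 fold change of 0.00 or more, where 49.3% of all genes lay above 0. Their median was 0.15, and 0.11 with the length trend removed, when corto stood at -0.11. The intervals of E(z), corto (0.02), Caf1-55 (0.05) and escl (0.11) included 1. Jing (0.27), Pc (0.20), Hmr (0.32), Kdm4A (0.28) and JMJD5 (0.26) were higher by less than 1.5-fold. Over all genes 55.0% had an interval that excluded 1, and 18.3% passed 1.5-fold in either direction.

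Among genes of the germline, vas stood out in H1OE. This RNA helicase gene had 57 counts in H1OE, against 6 in control (8.37-fold, interval 3.62 to 23.8). It was the only gene of the lists past 2-fold with 10 counts added, which 7.13% of all genes passed. Its level was 2.08 CPM in H1OE and 0.249 to 0.686 CPM in the other 6 libraries. HP1D3csd had 15 counts in H1OE and 8 in Levodopa, against 2 in control (6.61-fold for H1OE against control, 1.54 to 59.5). Its level in H1OE, 0.548 CPM, lay within the 0.316 to 0.765 CPM of the 25 °C columns, and the 29 °C control was the lowest library. Panx, a protein that links piRNAs to heterochromatin, had 257 counts in H1OE, against 151 in control (log2 fold change 0.56), and its 9.39 CPM in H1OE lay below the highest control column at 25 °C (9.81 CPM). Germline and ovary markers, a list that also holds vas, summed to 2.78 CPM in H1OE and 0.382 CPM in Levodopa, against 0.664 CPM in control. Vas made up 2.08 of the 2.78 CPM in H1OE, and otu had 4 counts in H1OE, against 10 in control. Of these 6 markers 5 had a count in H1OE and 2 in each other 29 °C library, and Vm26Aa was at 0 in all 7 libraries. At 25 °C the list summed to 0.442 and 1.07 CPM in Levodopa, against 1.21 and 0.948 CPM in control. The part of gonadal RNA in the values of vas, HP1D3csd and Panx was not tested.

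Against Levodopa at 29 °C, H1OE had higher esc, with 493 counts in H1OE and 235 in Levodopa (2.00-fold, interval 1.71 to 2.35, log2 fold change 0.97). Su(z)2 (0.53), Psc (0.43), trx (0.46), ash1 (0.25), Hmr (0.38) and Su(var)2-HP2 (0.31) were higher as well, and NO66 (-0.26) was lower, each with an interval that excluded 1. Over all genes 52.8% had such an interval. Vas had 57 counts in H1OE and 7 in Levodopa, and piwi 36 and 11. Vas and piwi were the only genes of the lists past 2-fold with 10 counts added, which 6.16% of all genes passed. Rhi had 3 counts in H1OE and 10 in Levodopa, a difference within its counting interval. Esc therefore stood highest in H1OE and lowest in Levodopa among the 29 °C libraries, while the level of E(z) in these libraries stayed between 22.5 and 23.4 CPM.

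**Figure D5:**
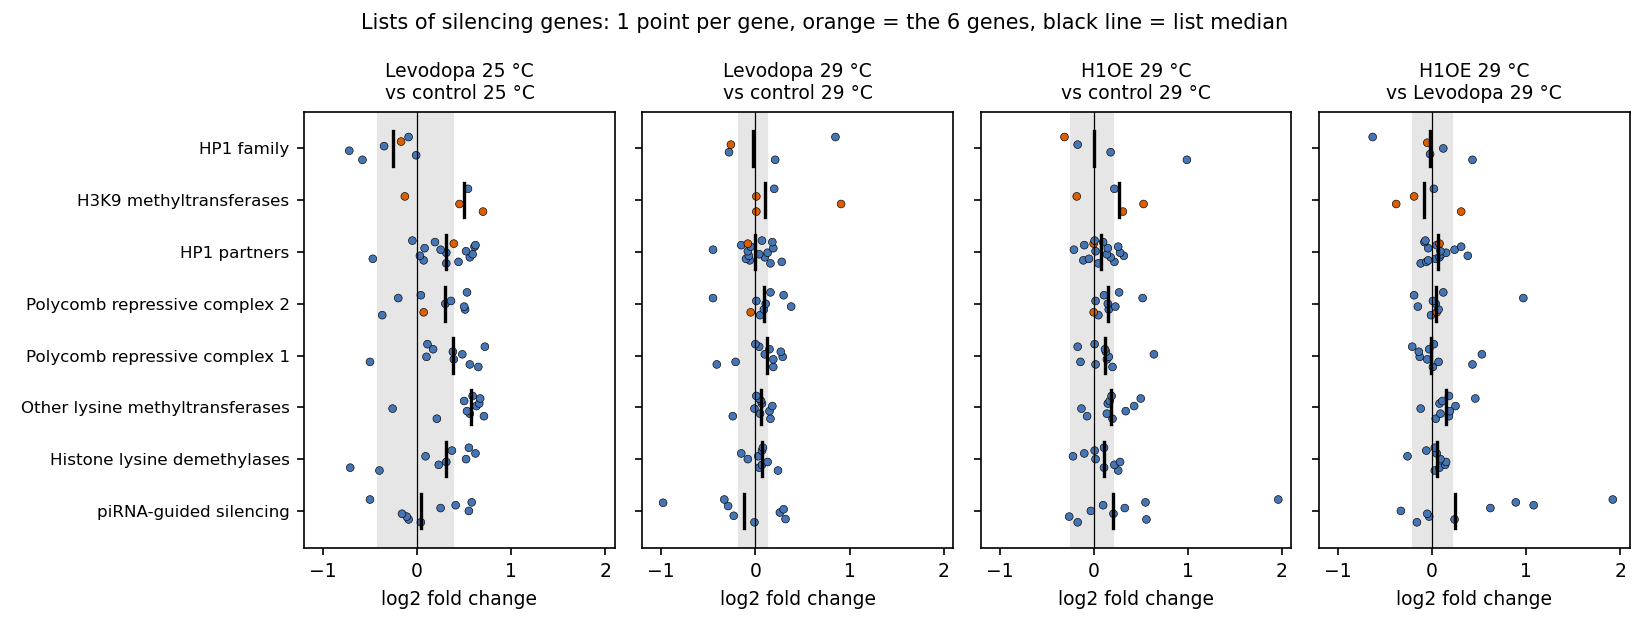
Log2 fold change of every measured gene of 8 lists of silencing genes in the 4 comparisons, 1 point per gene (the 6 genes in orange, the others in blue), with the list median as a black line and the middle range of all genes in grey; at 29 °C 10 counts were added to both libraries. At 25 °C all list medians other than those of the HP1 family (-0.26) and piRNA-guided silencing (0.04) lie at 0.30 or more, and for Levodopa at 29 °C they lie between -0.12 and 0.13.

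Profiles over the libraries were compared as log2 CPM centred within each table over 7 columns, by the root mean square (RMS) difference, with 7469 genes that had at least 500 counts in each table. The genes nearest to G9a were CG42795 (RMS 0.0202) and the potassium channel gene Shab (0.0368). The genes nearest to Su(var)205 were Dbp21E2 (0.0128) and CG9231 (0.0184), and those nearest to Su(var)3-7 were Sh3beta (0.0225) and nudE (0.0250). Egg was nearest to Tango6 (0.0240) and Rab6 (0.0330), and E(z) to Rab14 (0.0105) and Nup93-1 (0.0141). Su(var)3-9 was nearest to 5-HT1B (0.127) and CG33111 (0.131), but its own counts lay below that minimum, so counting error makes up an unknown part of these distances. Among the other 5 genes E(z) varied least, with an RMS of 0.0380 around its own mean, and G9a most (0.282).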

How the data were processed

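Whole-number read counts per gene were deposited for every library by the authors, and the authors also deposited FPKM. At 25 °C the FPKM equalled count over exonic length over column total; at 29 °C the library size behind them lay 0.200 to 3.46% below the total. Alignment used HISAT2 2.2.1 on build dm6, per the submitters' processing notes; the counter, its strand setting and the annotation release are not given in the sources used here. In the 29 °C table, 2 count columns matched no labelled sample and were not used. The 25 °C and 29 °C tables were analysed apart.

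Genes with at least 10 counts in 1 library were kept. At 25 °C the 2 columns of each sample entered edgeR 4.0.16 (R 4.3.3) as separate libraries, with TMM scaling and the quasi-likelihood F test; the common biological coefficient of variation was 2.87%. Adjusted p are Benjamini-Hochberg over all genes tested. DESeq2 1.42.0 served as an alternative. At 29 °C, with 1 library per group, log2 ratios of TMM-scaled counts had 10 counts added and sizes of 2-fold and 1.5-fold were used; exact 95% intervals cover counting error only, as the labels name no molecular identifiers and PCR copies cannot be told from separate molecules. The 1.5-fold size at 25 °C was chosen after seeing the data. The length trend was a loess of log2 fold change on log2 exonic length, removed as an offset and refitted. A count of 0 allows up to 3 counts, or 0.0989 to 0.121 CPM. The procedures were tested on simulated data. Exon overlaps came from a BDGP6 annotation whose coordinates equalled those of the files for all 6 genes.

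The 6 genes, the lists and the tests were chosen with earlier results of these data known. Named are all 6 genes, the 2 measured genes of each list with the largest absolute log2 fold change in each comparison, any list gene past 2-fold, genes whose exons overlap those of the 6, and the 2 genes nearest in profile. HP1b, named beside its family, was added after its values were seen. No sequence is shown, since none was used here.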

Additional observations from a re-analysis of the deposited data

Results flagged for a closer look

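For 3 genes the TMM-scaled levels of Levodopa and control differed in opposite directions at the 2 temperatures. Every column of Levodopa lay on one side of control at 25 °C, and the single Levodopa library lay on the other side at 29 °C. Su(var)3-7 had a log2 fold change of 0.39 in Levodopa against control at 25 °C and of -0.08 at 29 °C. With the length trend removed its value at 25 °C was 0.09 (edgeR adjusted p = 0.334). Egg had -0.13 at 25 °C and 0.01 at 29 °C. This case depended on the scaling, as egg stood at 0.01 at 25 °C with total counts and with FPKM + 1. E(z) had 0.07 at 25 °C and -0.05 at 29 °C. The difference between temperatures was not tested, and the values at 29 °C of all 3 genes, and that of E(z) at 25 °C, lie within counting error of 0.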

How the results depend on the processing

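Of the recomputed values of the 6 genes 203 kept their direction and side of the threshold, or moved by less than their error, while 12 lost their call, 2 gained one, 4 moved further and 1 reversed. At 25 °C Su(var)205 reversed to 0.08 (adjusted p = 0.173) with the length trend removed, and was -0.04 with total counts and with FPKM + 1, and -0.20 to -0.15 with columns left out. Su(var)3-9 was 0.47 with DESeq2, 0.43 without a count filter (adjusted p = 0.0744) and 0.37 to 0.53 with columns left out, and did not pass in any of these. Su(var)3-7 was 0.09 without the length trend and 0.30 to 0.47 with columns left out. Egg was -0.33 without the length trend and 0.01 with FPKM + 1. E(z) was 0.21 with total counts and 0.19 with FPKM + 1. G9a in H1OE was 0.21 without the length trend. At 29 °C Su(var)3-9 in Levodopa against control was 1.03 with 1 count added and 0.62 with 50 added. In H1OE against control it was 0.61 with 1 count added, past 1.5-fold, 0.59 with total counts and 0.34 with 50 added.

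Over all genes at 25 °C, 609 passed with 2-fold, 2503 with 1.5-fold and 399 with at least 50 counts. Those higher numbered 238, 356 with total counts, 137 with at least 50 counts and 137 to 190 with columns left out (153 and 137 without Levodopa column 1 or 2). Those lower numbered 371, 211 without the length trend and 208 with total counts. At 29 °C, genes past 2-fold numbered 300 for Levodopa against control, 808 for H1OE against control and 700 for H1OE against Levodopa. These became 820, 1443 and 1373 with 1 count added, 39, 256 and 214 with 50 added, and 82, 399 and 367 with at least 50 counts. Past 1.5-fold were 1112, 2070 and 1967, which became 170, 850 and 745 with 50 added and 343, 1072 and 1015 with at least 50 counts. The cause of these shifts was not tested, beyond that fewer genes enter under the stricter filter.

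Column numbers did not pair the 25 °C columns (correlation of deviations across genes -0.014). With the number as a replicate block Su(var)3-9 kept 0.45 but lost its call (adjusted p = 0.0576), and no other call of the 6 genes was lost.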
